A study of Homo sapiens with 6 samples.

Results

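Annexin, S100 and AHNAK genes were examined in the human cell line PANC-1, which was established from a ductal carcinoma of the pancreas, after treatment for 48 h with 8 µM of a compound that the labels call CMR (3 libraries), and in control cells of the same line (3 libraries). The members were selected by gene symbol among genes with a protein-coding transcript: numbered ANXA symbols, symbols made of S100 and a letter with or without a number, AHNAK and AHNAK2. They numbered 34 of the 58825 genes in the table, with 12 annexins, 20 S100 genes and 2 AHNAK scaffolds. The rule held 1 measured value, the mean count that chooses between rows of a repeated symbol, and it chose none of them because 0 symbols were repeated. A further matching symbol, S100A15A, had no protein-coding transcript. The labels give neither what the control cells received nor whether replicate libraries stem from separate cultures, so the spread behind the p-values may be technical. Fewer cells expressing a gene and less RNA per cell cannot be told apart in bulk RNA.

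Annexins are cytosolic proteins that bind acidic membrane phospholipids when calcium rises, and they act in membrane organisation, vesicle traffic and resealing of torn membranes. S100 proteins are small EF-hand calcium sensors that mostly work as dimers, change shape on calcium binding and then grip partner proteins, among them the flexible N-termini of annexins. S100A10 with ANXA2, S100A11 with ANXA1 and S100A6 with ANXA11 are well known pairs, and AHNAK is a giant scaffold of the membrane skeleton that binds the ANXA2-S100A10 complex. S100P, S100A4, S100A6 and ANXA2 are known as proteins that are abundant in pancreatic ductal carcinoma.

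The sequence just before the RefSeq start of 5 genes is shown because these genes carry the main changes described here: S100P, the member that rose most, and ANXA2, its partner S100A10, S100A4 and AHNAK, which fell. They are RefSeq promoters of build GRCh38.p14, written 5′ to 3′ on the gene's own strand and ending at the base before the start, with 250 bases for S100P (chr4:6693628-6693877, plus strand) and 120 for ANXA2 (chr15:60397987-60398106, minus strand), S100A10 (chr1:151993860-151993979, minus strand), S100A4 (chr1:153545807-153545926, minus strand) and AHNAK (chr11:62545827-62545946, minus strand). Capitals mark the letters of the GC box (GGGCGG), the TATA box (TATAAA), the AP-1 site (TGANTCA) and the composite site of C/EBP and ATF factors (TGATGNAA), read on both strands; GC boxes may overlap each other. For ANXA2, S100A4 and AHNAK this start lies inside the deposited span of the gene, which reaches further upstream.
S100P: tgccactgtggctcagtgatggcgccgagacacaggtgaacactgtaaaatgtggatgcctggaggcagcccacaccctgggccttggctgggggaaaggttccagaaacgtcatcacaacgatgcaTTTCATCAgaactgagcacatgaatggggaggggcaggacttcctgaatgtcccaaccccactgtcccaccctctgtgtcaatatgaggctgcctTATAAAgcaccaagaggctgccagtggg
ANXA2: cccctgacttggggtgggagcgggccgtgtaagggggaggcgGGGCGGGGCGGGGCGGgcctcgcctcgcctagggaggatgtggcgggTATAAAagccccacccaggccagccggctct
S100A10: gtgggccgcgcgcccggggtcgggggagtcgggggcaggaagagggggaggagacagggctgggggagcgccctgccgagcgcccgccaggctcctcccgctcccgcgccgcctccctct
S100A4: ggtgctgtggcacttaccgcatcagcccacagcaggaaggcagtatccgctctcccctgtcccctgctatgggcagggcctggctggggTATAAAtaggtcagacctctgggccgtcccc
AHNAK: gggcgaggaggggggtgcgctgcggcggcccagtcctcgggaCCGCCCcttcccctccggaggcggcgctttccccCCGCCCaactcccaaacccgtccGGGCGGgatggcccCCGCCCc
The S100P promoter held TATAAA 28 bases before the start and TGATGNAA, on the opposite strand, 123 bases before it. ANXA2 and S100A4 each held TATAAA 31 bases before the start, ANXA2 with 3 GC boxes and S100A4 with 0, while the AHNAK stretch held 4 GC boxes and the S100A10 stretch held 0 of these motifs. These stretches of 120 bases end short of the S100P site at 123 bases. Over 250 bases, S100A10 also held a GC box and ANXA2 an AP-1 site. RefSeq promoters were found for 31 members (43 sequences), and not for ANXA8, ANXA13 and S100B. In the 250 bases before the start, TATAAA stood in 15 of the 43 sequences and in 10.7% of all 35116 promoters, TGATGNAA in 1 of 43 and 3.14% of all, TGANTCA in 5 of 43 and 6.57%, and GGGCGG in 17 of 43 and 42.6%. CCAAT stood in 11 of 43 and 32% of all, and CCACG, the end of the ER stress element, in 20 of 43 and 33.5% of all. These motifs were chosen with the changes known, and a match is a description of the letters.

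Library totals ran from 66460535 to 70129221 counts with CMR and from 51147268 to 63811430 counts in control. The members held 0.376 to 0.547% of all counts in the CMR libraries, against 1.15 to 1.24% in the control libraries. This share leans on AHNAK, the member with the most counts in every library. AHNAK had 82429 to 131583 counts with CMR and 343833 to 504839 in control, and sums per family scaled to length are given below. Of the ductal epithelium markers examined, 8 reached 1 FPKM (a fragment count scaled to gene length and sequencing depth) in at least 1 library and CFTR stayed under 1 FPKM. Their summed level was 156 to 292 FPKM with CMR and 637 to 724 FPKM in control. Most of it came from KRT8, KRT18 and KRT19, at 45.5, 105 and 49.5 FPKM with CMR, against 172.5, 210 and 262 FPKM in control. Of 8 tested markers, 5 were called lower and 0 higher, where 18.1% of all genes tested were called lower and 20.5% higher. CDH1, EPCAM and SOX9 were not called. The part of these differences in the changes below was not tested. Markers of acinar and endocrine pancreas, fibroblasts, endothelium, adipocytes and glia were under 1 FPKM in every library, as were 8 of 9 blood cell markers, all but CD68. Within that limit the fibroblast list summed to 0.0166 to 0.0945 FPKM with CMR and 0.371 to 0.507 FPKM in control, with ACTA2 lower (log2 fold change -4.02 ± 0.97, edgeR adjusted p = 0.0151), and its part in the changes below was not tested. Of the acinar and endocrine markers only PRSS1 was tested, and it was called higher (edgeR adjusted p = 0.01085). PRSS1 had 17, 15 and 14 counts with CMR and 0 in each control library, so its call compares a group at 0. The blood cell list summed to 24.5 to 31.1 FPKM with CMR and 26.8 to 33.2 FPKM in control, with CD3E and MS4A1 among those without a count.

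Of the 34 members, 24 had counts high enough for the test. With CMR, 13 fell and 3 rose, at an adjusted p under 0.05 in edgeR's quasi-likelihood test over all 19200 genes tested. The 13 are 54.2% of the members tested, where 18.1% of all genes fell, and the 3 are 12.5%, where 20.5% of all genes rose and 38.6% were called in either direction. S100 genes fell in 9 of 12, annexins in 3 of 10 and AHNAK scaffolds in 1 of 2. The genes that rose were S100P, ANXA1 and ANXA5. The 3 CMR libraries did not overlap the 3 control libraries in 18 of the 24 tested members (75%), 15 lower and 3 higher, against 53.9% of all genes tested; the untested S100A9 and S100A14 did not overlap either. The median log2 fold change was -0.97 over the 24 members, -1.10 over S100 genes and -0.29 over annexins, against -0.01 over all genes tested; a gene with no count in CMR, set at the limit its counts allow, did not move these medians. That gene, S100A8, passed the filter on low counts through its control libraries alone. Without it, 12 of 23 members (52.2%) and 8 of 11 S100 genes fell, and the median over the members was -0.93. Over all genes, 3928 rose and 3476 fell, and upper-quartile scaling, which moved the median of all genes by -0.13 on the log2 scale, gave 3250 and 4324; for the members it gave 2 and 14. Without control replicate 1, 1 member (S100P) rose and 11 fell.

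Among the 16 members with a mean of at least 5 FPKM in either group, 9 fell and 3 rose, against 25.3% lower and 32.9% higher among the 7147 genes tested at that level. The other 18 members lay below that level, and 10 of them were not tested.

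**Figure D1:**
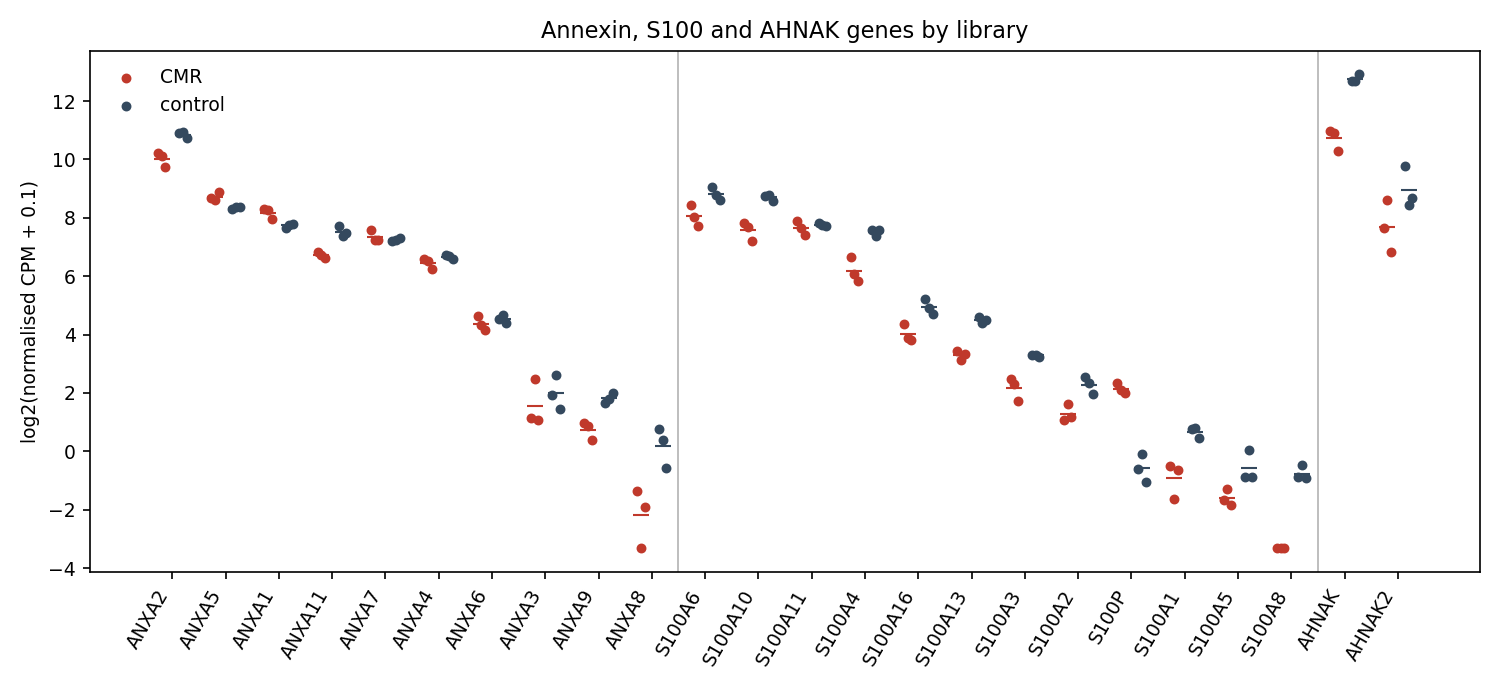
Normalised expression of the 24 tested members in each library, as log2(normalised CPM + 0.1), with the 3 CMR libraries in red left of the 3 control libraries in dark blue and a bar at each group's mean; vertical lines part annexins, S100 genes and AHNAK scaffolds. The CMR points of AHNAK lie far below its control points, and S100P is the S100 gene whose 3 CMR points all lie above its control points.

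ANXA2 and its partner S100A10 both fell. ANXA2 (ENSG00000182718, chromosome 15, 60347134 to 60402883, minus strand), which bridges membranes and actin, had 1201, 1109 and 861 normalised CPM (counts scaled to library size and composition) in the CMR libraries, against 1901, 1967 and 1687 in the control libraries. Every CMR library was below every control library, with a log2 fold change of -0.81 ± 0.13 (SE; edgeR adjusted p = 0.00283). S100A10 (ENSG00000197747, chromosome 1, 151982915 to 151993859, minus strand), an S100 protein that needs no calcium to hold its partner, had 227, 207 and 148 CPM with CMR, against 427, 439 and 386 in control. It was 2.15-fold lower (log2 fold change -1.11 ± 0.16, edgeR adjusted p = 0.00169), again without overlap. Per length, S100A10 stood at 1.65, 1.63 and 1.5 times the FPKM of ANXA2 in the CMR libraries, against 1.96, 1.95 and 2.0 times in control. That order rests on the gene lengths behind the deposited FPKM, since ANXA2 had more CPM than S100A10 in every library. The processed pseudogene ANXA2P2, a near-identical copy on chromosome 9 that can take reads of ANXA2, averaged 59.2 FPKM with CMR and 108 FPKM in control. Its change was -0.79 ± 0.12 on the log2 scale (edgeR adjusted p = 0.00241). In CPM, ANXA2P2 averaged only 73.7 with CMR and 128 in control, against 1057 and 1851 for ANXA2. How reads were split between these genes was not checked, so the level of ANXA2 itself is uncertain by that part. A second copy, ANXA2P1, averaged 0.228 FPKM with CMR and 0.658 FPKM in control and did not pass (edgeR adjusted p = 0.140), except without CMR replicate 1 (0.0211). The further copies ANXA2P3, S100A11P1 and S100A7L2 were too low to test.

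For S100A11 no change was called, and its partner ANXA1 rose. S100A11 (ENSG00000163191, chromosome 1, 152032506 to 152047907, minus strand), which acts in growth control and membrane repair, had 238, 200 and 172 CPM with CMR, against 227, 218 and 210 in control. The groups overlapped, and the log2 fold change of -0.10 ± 0.12 did not pass (edgeR adjusted p = 0.562). ANXA1 (ENSG00000135046, chromosome 9, 73151865 to 73170393, plus strand), a mediator of glucocorticoid anti-inflammatory action, had 313, 305 and 246 CPM with CMR, against 202, 218 and 221 in control. It rose by 0.43 ± 0.11 on the log2 scale (edgeR adjusted p = 0.0174). That call was lost with upper-quartile scaling (edgeR adjusted p = 0.07), with limma on log2(FPKM + 1) (0.0502), and on leaving out CMR replicate 2 (0.0603), control replicate 1 (0.0699) or control replicate 2 (0.0527). The adjusted p of ANXA1 ran from 0.00322 to 0.07 over 15 alternatives.

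ANXA11 and S100A6 both fell. ANXA11 (ENSG00000122359, chromosome 10, 80150889 to 80205572, minus strand), which tethers RNA granules to lysosomes, had 115, 107 and 97.8 CPM with CMR, against 211, 166 and 177 in control (log2 fold change -0.80 ± 0.12, edgeR adjusted p = 0.00187). S100A6 (ENSG00000197956, chromosome 1, 153534599 to 153536215, minus strand), or calcyclin, had 346, 264 and 211 CPM with CMR, against 538, 444 and 391 in control. The groups of S100A6 did not overlap, but the highest CMR library came near the lowest control library, and its log2 fold change was -0.74 ± 0.20 (edgeR adjusted p = 0.0210). The call of S100A6 was lost without CMR replicate 2 (edgeR adjusted p = 0.0689), without control replicate 1 (0.074) and without control replicate 2 (0.0536), over alternatives from 0.00138 to 0.074.

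**Figure D2:**
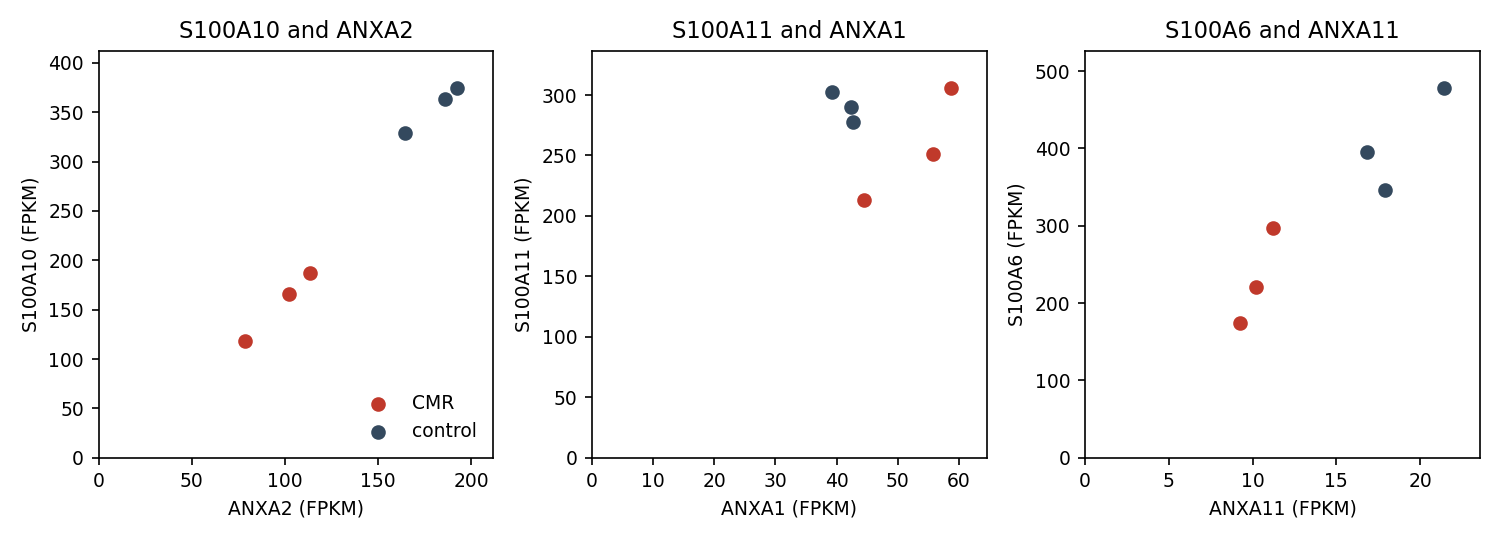
FPKM of an S100 gene (vertical axis) against that of the annexin its protein binds (horizontal axis) in each of the 6 libraries, CMR in red and control in dark blue. The groups part on both axes for S100A10 with ANXA2 and for S100A6 with ANXA11, while for S100A11 with ANXA1 they part only on the ANXA1 axis.

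AHNAK had the greatest fall among members with over 5 FPKM. AHNAK (ENSG00000124942, chromosome 11, 62433542 to 62556235, minus strand) had 1992, 1914 and 1257 CPM with CMR, against 6571, 6548 and 7707 in control, so each control library was over 3 times any CMR library. The gene was 4.03-fold lower (log2 fold change -2.01 ± 0.18, edgeR adjusted p = 0.000288), with a log2 fold change from -2.14 to -1.83 over 15 alternatives. Its relative AHNAK2 (ENSG00000185567, chromosome 14, 104937244 to 104970481, minus strand) had 200, 390 and 113 CPM with CMR, against 867, 349 and 412 in control. CMR replicate 2 lay above control replicate 2, and the log2 fold change of -1.21 ± 0.50 did not pass (edgeR adjusted p = 0.0988). Without CMR replicate 2 it was -1.80 and passed (edgeR adjusted p = 0.0332), over alternatives from 0.0332 to 0.317.

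S100P was the S100 gene that rose. S100P (ENSG00000163993, chromosome 4, 6693878 to 6697170, plus strand), which binds ezrin and IQGAP1 and can signal from outside the cell through the receptor RAGE, had 326, 284 and 254 counts with CMR, against 29, 45 and 25 in control. In CPM these are 4.94, 4.17 and 3.87 with CMR, against 0.554, 0.849 and 0.382 in control, so the lowest CMR library was over 4 times the highest control library. The gene was 7.29-fold higher (log2 fold change 2.87 ± 0.33, edgeR adjusted p = 0.000767), and it passed under all 15 alternatives (log2 fold change from 2.05 to 3.21). Its level remained modest, at 7.51 ± 1.08 FPKM with CMR and 1.08 ± 0.44 FPKM in control (SD, n = 3 each).

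On chromosome 1, where most of the family lies in a cluster, S100 genes fell and none was called higher. Of the 16 S100 members there, from 151982915 to 153632039 (1.65 Mb), 11 were tested. Of these, edgeR called 9 lower and 0 higher, where 18.1% of all genes tested were called lower and 20.5% higher. At an unadjusted p under 0.05 the numbers were 10 and 0, where 9083 of all 19200 genes tested passed in either direction. Without S100A8, which had no count with CMR, 8 of 10 were called lower. DESeq2 called 9 lower and 0 higher, and limma on log2(FPKM + 1) the same numbers. Without control replicate 1 or control replicate 2 the count was 6 lower, and under the other alternatives 7 to 10. The tested genes of the span that are no member numbered 8, with a median log2 fold change of -0.41. Of them 1 was called, the trichohyalin gene TCHH, a fused S100 protein of hair (log2 fold change -2.10 ± 0.35, edgeR adjusted p = 0.00313, 0.0617 FPKM with CMR and 0.282 FPKM in control). HRNR, FLG and FLG-AS1 averaged only 0.0478 to 0.192 FPKM, so the lack of a call at such levels says little. That limit does not cover every uncalled gene of the span. A gene listed as BX470102 averaged 2.71 FPKM with CMR and 4.76 FPKM in control (log2 fold change -0.72 ± 0.41, edgeR adjusted p = 0.208). For a gene listed as AL162258 the means were 3.44 FPKM with CMR and 4.37 FPKM in control (-0.27 ± 0.36, edgeR adjusted p = 0.594).

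S100A4 (ENSG00000196154, chromosome 1, 153543613 to 153550136, minus strand), a partner of non-muscle myosin that is tied to cell motility, had 101, 67.8 and 56.9 CPM with CMR, against 192, 165 and 192 in control. It was 2.43-fold lower (log2 fold change -1.28 ± 0.21, edgeR adjusted p = 0.00284), without overlap. S100A13 (ENSG00000189171, chromosome 1, 153618787 to 153631360, minus strand), which helps release signal proteins that lack a leader sequence, had 10.7, 8.74 and 9.93 CPM with CMR, against 24.1, 21.0 and 22.7 in control. S100A13 changed by -1.21 ± 0.13 on the log2 scale (edgeR adjusted p = 0.00065), and its groups lay far apart for their spread. The gene listed as AL162258, whose span overlaps that of S100A13 on the same strand, had 28.9% of its mean count. S100A16 (ENSG00000188643, chromosome 1, 153606886 to 153613137, minus strand), a broadly expressed S100 protein, had 20.5, 14.8 and 13.9 CPM with CMR, against 37.6, 29.9 and 26.1 in control. Its log2 fold change was -0.93 ± 0.20 (edgeR adjusted p = 0.0101), and control replicate 1 was its highest library. S100A3 (ENSG00000188015, chromosome 1, 153547329 to 153549258, minus strand), a hair cuticle protein, had 5.53, 4.81 and 3.17 CPM with CMR, against 9.79, 9.87 and 9.39 in control (log2 fold change -1.10 ± 0.23, edgeR adjusted p = 0.00749). The span of S100A3 lies wholly within that of S100A4 on the same strand, and S100A4 had 1820% of its mean count, so which of these genes its reads came from is uncertain.

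**Figure D3:**
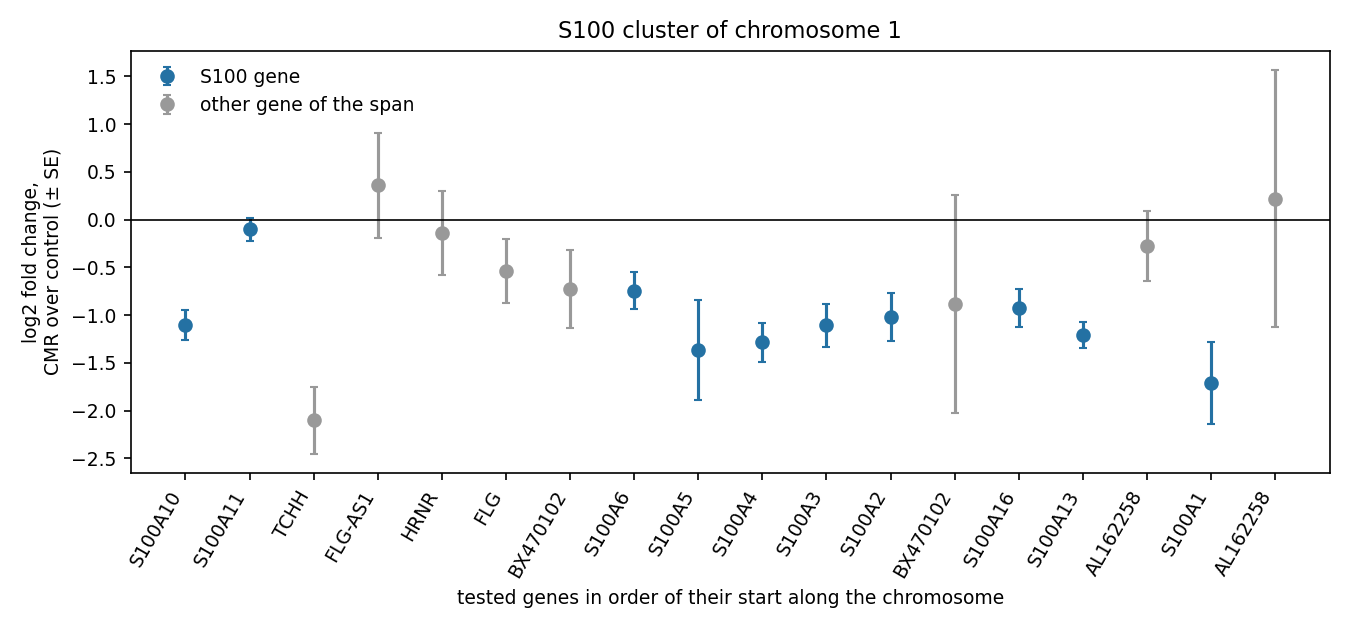
Log2 fold change of CMR over control (± SE) for the tested genes between S100A10 and S100A1 on chromosome 1, in the order of their starts, with S100 genes in blue and other genes of the span in grey; S100A8, which had no count with CMR, is left out. All S100 points but S100A11 lie at or below -0.74, and S100A11 lies at -0.10.

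Of the tested S100 genes with low levels, S100A1 and S100A2 fell and S100A5 did not pass. S100A2 had 2.0, 3.0 and 2.13 CPM with CMR, against 5.70, 4.98 and 3.82 in control. It is a nuclear S100 protein of squamous epithelia, and its log2 fold change of -1.02 ± 0.25 passed (edgeR adjusted p = 0.0168). The call of S100A2 was lost without CMR replicate 3 (edgeR adjusted p = 0.0512), without control replicate 1 (0.0632) and without control replicate 2 (0.053), over alternatives from 0.00129 to 0.0632. S100A1, best known from heart muscle, had 0.606, 0.220 and 0.549 CPM with CMR, against 1.61, 1.64 and 1.27 in control (log2 fold change -1.71 ± 0.43, edgeR adjusted p = 0.0172). Its call was lost without control replicate 1 (edgeR adjusted p = 0.0541) or control replicate 2 (0.0533), over alternatives from 0.00188 to 0.0541. S100A1 overlaps S100A13 on the other strand over 3435 bases, and S100A13 had 1685% of its mean count, so its reads are uncertain. A gene listed as AL162258 also overlaps S100A1 on the other strand, over 4114 bases and with 487% of its mean count, and another of that name over 602 bases with 25.5%. S100A5, known from olfactory neurons of rodents, had 0.212, 0.309 and 0.183 CPM with CMR, against 0.440, 0.943 and 0.443 in control, and did not pass (log2 fold change -1.37 ± 0.52, edgeR adjusted p = 0.0787), although its groups did not overlap. With limma on log2(FPKM + 0.1) S100A5 passed (adjusted p = 0.036), over alternatives from 0.036 to 0.297.

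S100A8 and S100A9, the subunits of calprotectin of neutrophils and stressed epithelia, had counts in control cells and none with CMR. S100A8 had 0 counts in each CMR library, against 23, 33 and 28 in control, which is at least 34.4-fold lower when 3 counts over the pooled CMR libraries are taken as the floor. Its call (edgeR adjusted p = 0.00335) compares a group at 0, and the gene was tested only because of its control counts. S100A9 had 0 counts in each CMR library, against 4, 50 and 11 in control (at least 26.6-fold lower by the same floor), but did not pass the filter on low counts. Control replicate 2 held most of the S100A9 counts, and without it the limit was 8.91-fold. S100A14, an epithelial S100 protein, had 0 against 8, 19 and 9 counts in control (at least 14.8-fold lower), and S100Z 0 against 8, 0 and 9 counts in control (at least 6.97-fold lower), both untested. The groups of S100Z overlapped, since control replicate 2 was also at 0. Leaving out a control library lowered the limit to as little as 10.1-fold for S100A14, 5.31-fold for S100Z and 30.3-fold for S100A8. The floor of 3 pooled CMR counts corresponds to 0.0146 CPM and covers counting error only.

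Further members were at the edge of detection. S100A7 had 4 counts in CMR replicate 3 and S100B, the S100 protein of glia and melanocytes, 4 counts in CMR replicate 2, with 0 in every other library. ANXA10 had 4 counts in control replicate 1 and 0 elsewhere. The 4 members ANXA13, S100A7A, S100A12 and S100G had no count in any library.

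**Figure D4:**
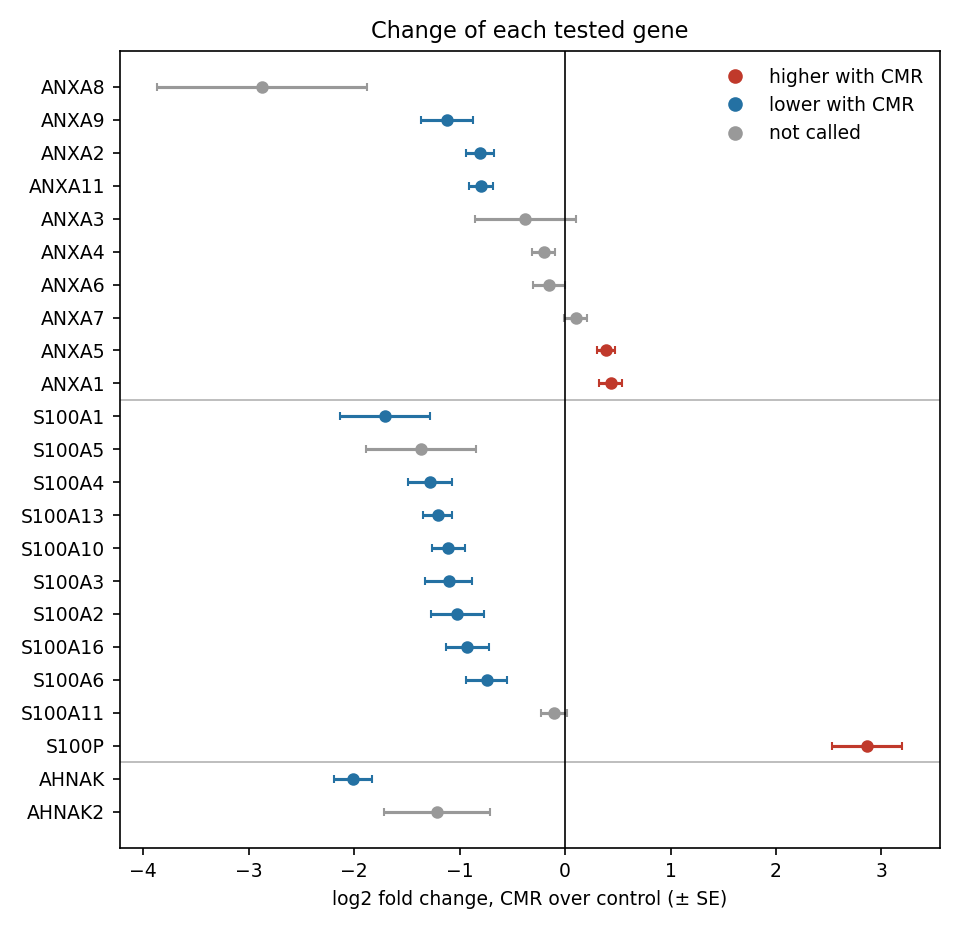
Log2 fold change of CMR over control for 23 tested members, with bars for the SE; points are red where the gene was called higher, blue where it was called lower and grey where it did not pass. S100A8 is left out because it had no count with CMR. Most S100 points lie left of 0, and the annexins spread on both sides.

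Of the other annexins, ANXA5 rose and ANXA4, ANXA6 and ANXA7 did not pass. ANXA5 (ENSG00000164111, chromosome 4, 121667946 to 121696995, minus strand), which binds exposed phosphatidylserine and is used as a stain for dying cells, had 412, 395 and 470 CPM with CMR, against 315, 330 and 331 in control. All CMR libraries were above all control libraries, and the log2 fold change was 0.39 ± 0.09 (edgeR adjusted p = 0.0110). Without control replicate 1 its call was lost (edgeR adjusted p = 0.0512), over alternatives from 0.00415 to 0.0512. ANXA7 (ENSG00000138279, chromosome 10, 73375101 to 73414076, minus strand), which fuses secretory vesicles, had 190, 153 and 150 CPM with CMR, against 148, 151 and 159 in control, and did not pass (log2 fold change 0.10 ± 0.11, edgeR adjusted p = 0.503). ANXA4 (ENSG00000196975, chromosome 2, 69644425 to 69827112, plus strand), an annexin of secretory epithelia, had 96.4, 91.6 and 76.5 CPM with CMR, against 106, 102 and 95.9 in control, and did not pass (log2 fold change -0.20 ± 0.11, edgeR adjusted p = 0.192). The ANXA4 span overlaps that of AAK1 on the other strand, which had 241% of its mean count. ANXA6, an annexin with a duplicated core, averaged 20.9 ± 3.43 CPM with CMR and 23.2 ± 1.98 CPM in control (SD, n = 3 each) and did not pass (log2 fold change -0.15 ± 0.15, edgeR adjusted p = 0.474).

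ANXA9 was the low annexin that fell, with 1.86, 1.71 and 1.21 CPM with CMR, against 3.06, 3.40 and 3.92 in control. The groups did not overlap (log2 fold change -1.12 ± 0.25, edgeR adjusted p = 0.0107). ANXA8 had 19, 0 and 11 counts with CMR, against 83, 64 and 38 in control, and its log2 fold change of -2.87 ± 1.0 did not pass (edgeR adjusted p = 0.0573), although the groups did not overlap. ANXA8 passed in 5 of 14 alternatives. Among these were DESeq2 (adjusted p = 0.00861), limma on log2(FPKM + 1) (0.0264) and edgeR with upper-quartile scaling (0.0497) or without CMR replicate 2 (0.0352). Its adjusted p ran from 0.00861 to 0.160 over the 14 alternatives. The near-identical copy ANXA8L1 was too low to test. ANXA3 had 2.09, 5.48 and 2.0 CPM with CMR, against 3.69, 6.09 and 2.66 in control. Replicate 2 was the highest library of each group for ANXA3. The same held for the epithelial marker CDH1, with 18.7, 41.6 and 10.8 CPM with CMR, against 28.4, 61.4 and 27.4 CPM in control. Of the other tested ductal markers it held for EPCAM, but not for KRT7, KRT8, KRT18, KRT19, MUC1 or SOX9. The part of such a library difference in ANXA3 was not tested, and the gene did not pass (log2 fold change -0.38 ± 0.48, edgeR adjusted p = 0.580).

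Summed FPKM shows the makeup of each family per length, as a description with no test. These sums, and the order of levels below, rest on the gene lengths behind the deposited FPKM, which were not checked. In these sums, ANXA2 made up 30.8, 30.7 and 25.1% of all annexin FPKM in the CMR libraries, against 46.6, 47.0 and 42.9% in control. ANXA5 made up 31.9, 33.0 and 41.3% with CMR, against 23.3, 23.8 and 25.4% in control, and ANXA1 14.2 to 16.7% with CMR, against 9.83 to 11.1% in control. The FPKM ratio of ANXA5 to ANXA2 was 1.04, 1.07 and 1.65 with CMR, against 0.5, 0.507 and 0.592 in control. By FPKM, ANXA5 thus stood above ANXA2 in each CMR library and below it in each control library. In CPM, which is not scaled to length, ANXA2 stood above ANXA5 in every library. ANXA2 had 861 to 1201 CPM with CMR and 1687 to 1967 in control, against 395 to 470 and 315 to 331 for ANXA5. The summed annexin level was 338 ± 28.2 FPKM with CMR and 398 ± 13.3 FPKM in control (SD, n = 3 each), while the summed S100 level was 735 ± 167 FPKM with CMR and 1260 ± 100.2 FPKM in control. S100A11 made up 33.7, 34.9 and 37.1% of S100 FPKM with CMR, against 22.2, 23.2 and 23.9% in control, and S100A10 20.5 to 23.1% with CMR, against 26.7 to 29.9% in control.

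By mean FPKM, S100A11 (257 ± 46.6) and S100A6 (231 ± 61.7) led with CMR, followed by S100A10 (157 ± 35.4), ANXA5 (119 ± 9.84), ANXA2 (98.1 ± 17.9), AHNAK (72.5 ± 17.9) and S100A4 (65.2 ± 21.2; SD, n = 3 each). The ranges of neighbours in that order overlapped throughout. In control, S100A6 (407 ± 66.7), S100A10 (356 ± 24.2), AHNAK (308 ± 28.6) and S100A11 (290 ± 12.3) led, with overlap between neighbours, and ANXA2 (181 ± 14.7) and S100A4 (167 ± 13.8) came below them, overlapping each other but not S100A11.

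**Figure D5:**
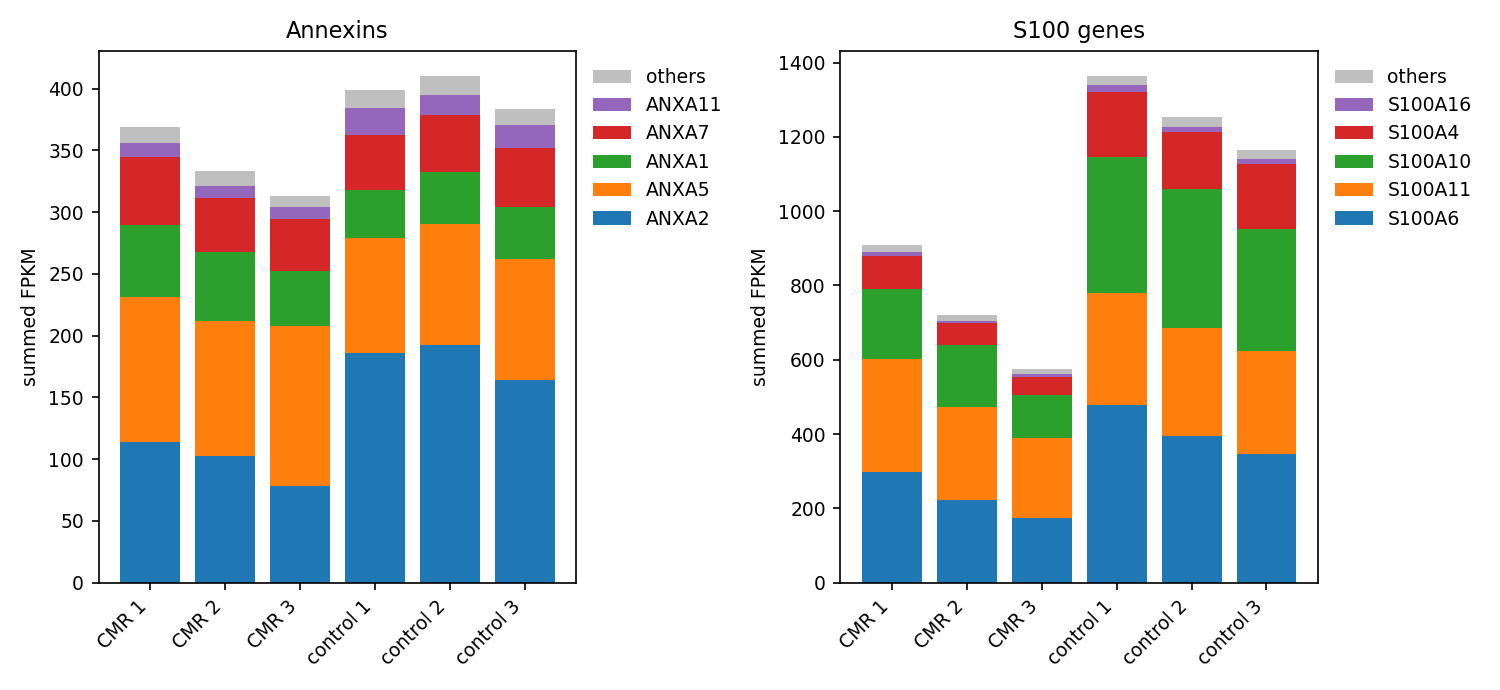
Summed FPKM of annexins (left) and S100 genes (right) in each library, CMR libraries left of control libraries, with colours for the 5 most expressed genes of each family and grey for the others. The S100 bars reach 576 to 908 FPKM with CMR and 1163 to 1364 FPKM in control, and the ANXA2 block is smaller in each CMR library.

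Genes that work beside these families were counted from lists of known roles, against the same 20.5% higher and 18.1% lower over all genes. Of 25 partners and receptors, 19 were tested, 7 fell and 1 rose (median log2 fold change -0.32). Those with the greatest change were TRPV6, ASIC1, PLAU and ANXA2R. The calcium channel gene TRPV6 (log2 fold change -2.73) had only 0.0329 FPKM with CMR and 0.235 FPKM in control. The proton-gated channel gene ASIC1 (-1.88 ± 0.43) was also low, at 0.205 FPKM with CMR and 0.793 FPKM in control. The urokinase gene PLAU (-1.70 ± 0.22) had 21.4 FPKM with CMR and 73.0 FPKM in control. ANXA2R, the annexin A2 receptor gene (-1.07), lost its call without control replicate 2 (edgeR adjusted p = 0.0789) and without control replicate 3 (0.0606). Of the direct partners, chosen after their values were seen, EZR, the S100P partner ezrin, was at -0.92 ± 0.09 on the log2 scale (edgeR adjusted p = 0.000456) and MYH9, the heavy chain that S100A4 binds, at -0.94 ± 0.11 (edgeR adjusted p = 0.000669). IQGAP1, which S100P binds, was at -0.22 ± 0.07 (edgeR adjusted p = 0.037), and the S100A6 partners SUGT1 and CACYBP were at 0.80 ± 0.14, the gene of the list that rose (edgeR adjusted p = 0.00329), and at -0.26 ± 0.10, which did not pass (0.0876). The S100P receptor gene AGER did not pass, at 0.552 FPKM with CMR and 0.447 FPKM in control (edgeR adjusted p = 0.497).

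Plasma membrane repair genes went both ways, with 7 lower and 4 higher of 20 tested and a median log2 fold change of 0.01. Those with the greatest change were the caveolar genes CAV1 (log2 fold change -1.82 ± 0.18) and CAVIN1 (-1.65 ± 0.15), EHD2, which steadies caveolae (-1.09 ± 0.13), and the membrane fusion gene SNAP23 (1.03 ± 0.09; edgeR adjusted p = 0.000435, 0.000307, 0.000731 and 0.00032). Other cytosolic EF-hand genes fell in 8 of 17 and rose in 1, with a median of -0.34. EFHD2 (log2 fold change -1.48 ± 0.18), EFHD1 (-1.46 ± 0.36), NCS1, a neuronal calcium sensor (-1.21 ± 0.17), and CALML4 (-0.97 ± 0.32) fell most. The call of EFHD1 was lost without control replicate 2 (edgeR adjusted p = 0.0581), and that of CALML4 in 7 of 14 alternatives, among them those without CMR replicate 2 (0.0976), without CMR replicate 3 (0.109), without control replicate 1 (0.119) and without control replicate 3 (0.153).

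EF-hand genes of the secretory pathway rose in 5 of 8 and fell in 2, with a median log2 fold change of 0.79. RCN3 (log2 fold change 2.66 ± 0.39), NUCB2 (2.11 ± 0.14) and RCN1 (1.54 ± 0.10), calcium binders of the ER and Golgi, rose, and the secreted matrix protein gene SPARC fell (-2.03 ± 0.47; edgeR adjusted p = 0.00194, 0.000107, 8.7e-05 and 0.0132). Copines, another family of calcium-dependent phospholipid binders, rose in 1 and fell in 2 of 6 tested, with CPNE7 at a log2 fold change of -1.11 ± 0.18, CPNE2 at -1.08 ± 0.19 and CPNE8 at 0.43 ± 0.13. The call of CPNE8 (edgeR adjusted p = 0.0329) was lost in 8 of 15 alternatives, among them those that leave out CMR replicate 2 (0.0779), CMR replicate 3 (0.0773), control replicate 1 (0.117) and, in turn, control replicate 2 (0.0943).

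Within the CMR group the libraries differed for these genes. Among the 12 members that fell and had counts in both groups, CMR replicate 3 was the lowest CMR library for 9 and CMR replicate 1 the highest for 11. Control replicate 3 was the lowest control library for 7 of them, control replicate 1 the highest for 5 and control replicate 2 the highest for 4. Without CMR replicate 3, 12 members fell and 3 rose, and without CMR replicate 1, 13 fell and 3 rose.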

How the data were processed

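The labels' protocols describe poly(A)-selected RNA of PANC-1 cells read as paired ends; they also name an adipose source, which is at odds with the cell line. Per the file headers, the authors deposited whole-number counts and FPKM values per gene and library. Per the submitters' processing notes, Bowtie 0.12.2, HISAT2 2.0, StringTie 1.3.0 and mouse build mm8 were listed; the counting tool and the use of strand are not given in the sources used here, and the treatment text is the same for both groups, which the treatment label tells apart. The 34 members have human identifiers present in GENCODE 29 (GRCh38), all 34 with an overlapping span and 14 with identical coordinates; coordinates are those deposited. FPKM values of genes without a count were deposited as 0.0001 and summed as 0.

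Counts were tested with edgeR 4.0.16 in R 4.3.3 (TMM scaling, filterByExpr with a minimum count of 10 and total of 15, quasi-likelihood test, Benjamini-Hochberg adjustment over 19200 of 31368 genes with a count, threshold 0.05); the SE is the log2 fold change over the root of its F value. The fit was tested on simulated data with the same dispersion for every gene, which does not measure how reliable the calls here are. Normalised CPM used the same factors, and library totals with 3 libraries per group set the precision. Members and lists were chosen with earlier results of these data known. Members with a mean of at least 5 FPKM in a group are given by library, the others by range or where called, and up to 4 called genes per list with the greatest change are named. Overlapping spans are named where the other gene had at least 10% of the member's mean count. Alternatives were median-of-ratios and upper-quartile scaling, library totals alone, no filter, a filter at 1 FPKM, DESeq2 1.42.0, limma 3.58.1 on log2(FPKM + 1) and log2(FPKM + 0.1), the replicate number as a block, and leaving out each library. Figures were drawn with matplotlib 3.10.9. Single values of some marker genes are not reported here.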

Additional observations from a re-analysis of the deposited data

How the results depend on the processing

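Under every alternative in which they were tested, AHNAK, ANXA2, ANXA9, ANXA11, S100A3, S100A4, S100A10, S100A13, S100A16 and S100P kept their direction and stayed past the threshold; S100A8, with no count with CMR, is left out of this list, and counting members without it, an alternative chosen after seeing the data like the limits without each control library, gave 12 lower and 3 higher. Members called lower numbered 11 to 15 under the alternatives that keep all libraries and 10 to 14 when a library was left out, against 13. Members called higher numbered 2 or 3 with all libraries and 1 to 3 when a library was left out, against 3. The calls over all genes ran from 5660 to 7711 when a library was left out, against 7404. Directions that turned were those of genes that had not passed. ANXA7 had a log2 fold change of -0.03 (-0.0254) with upper-quartile scaling and -0.02 (-0.0187) without CMR replicate 1, S100A11 0.0029 without CMR replicate 3 and ANXA3 0.0111 without control replicate 2. When a library was left out, ANXA7 ran from -0.0187 to 0.1598, S100A11 from -0.2336 to 0.0029 and ANXA3 from -1.0183 to 0.0111; the cause was not tested. The pseudocount sets the change of low genes, such that S100A1 had a log2 fold change of -0.34 with limma on log2(FPKM + 1), against -1.71. Same-numbered libraries deviated together only weakly (correlations of 0.0784, 0.0752 and 0.0595 across genes, each the highest for its library, a hint from the data and not the design), so the numbers were not taken to pair them; the replicate block gave 3 members higher, 13 lower and 6737 calls over all genes. Without the filter on low counts 30 members were tested and 15 were called lower; the other 4 had no count in any library.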
